A study of Mus musculus with 9 samples.

Results

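The genes described are those of the mitochondrial ribosomal proteins, the 78 genes of 16873 in the deposited tables whose mouse symbol begins with Mrpl or Mrps followed by a digit. Of these, 49 are named for the large subunit (Mrpl) and 29 for the small subunit (Mrps). They were chosen by symbol alone, so no measured value entered the choice. All 78 reached the mean of 1 FPKM required for testing, and all 78 also had a mean of at least 5 FPKM. FPKM counts the sequenced fragments of a gene relative to the length of its transcript and to the size of the library.

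Mitochondria build a few core subunits of the respiratory chain on ribosomes of their own, which descend from those of bacteria. The RNA of this ribosome is encoded in mitochondrial DNA, but every protein of it is encoded in the nucleus, made in the cytosol and imported. The heart, which relies on oxidative metabolism, is among the tissues richest in mitochondria, and inherited defects of several of these genes are known to cause cardiomyopathy.

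The libraries were made from total RNA of mouse heart in 3 groups of 3 libraries. The first group was wild-type (WT) mice given saline, the second WT mice given doxorubicin (DOX), and the third Sting-/- mice given doxorubicin. Doxorubicin is an anthracycline cancer drug that injures the heart, and STING is the adaptor that relays the signal of the DNA sensor cGAS. The study asked what this pathway contributes to cardiac injury under a chronic, low-dose course of the drug. The dose and schedule, the age, sex and strain of the mice and the interval before collection are not given in the sources used here. A saline-treated Sting-/- group was not analysed here, so genotype and its interaction with the drug cannot be told apart. Whether the libraries within a group come from different animals is not stated, and p-values therefore reflect only the spread among these samples, which could be technical.

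Sting1, the targeted gene, was at 5.10, 5.43 and 5.93 FPKM in the saline libraries, at 17.5, 17.96 and 17.8 FPKM in the WT DOX libraries and at 0.06, 0 and 0 FPKM in the Sting-/- libraries. The genotype labels and the targeted gene therefore matched in all 9 libraries. Sting1 cannot check the saline and doxorubicin labels of the WT libraries in this way. Judged from the step of the lowest values, sequencing reached, in 1e+06 fragments, roughly 10.7 to 12 for saline, 12.5 to 13.9 for WT DOX and 7.8 to 8.7 for Sting-/- DOX. The lowest value of any member in any library was 4.78 FPKM, for Mrpl19. Of the cardiomyocyte markers fixed for the tissue check, all 12 were above 0 in every library, and they summed to between 75970 and 76960 FPKM in saline, between 49250 and 52310 in WT DOX and between 10870 and 11420 in Sting-/- DOX. Cardiomyocyte RNA was therefore present in every library, with a much lower signal in the Sting-/- hearts. This check cannot show that a comparable mix of heart tissue was sampled in each group.

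In saline hearts the mean levels of the members spanned 7.58 FPKM (Mrpl17) to 652 FPKM (Mrpl42), with a median of 50.8 FPKM over the 78 genes. FPKM is scaled to transcript length, so these levels can be compared between genes. Mrpl42 stood alone at the top. The next most abundant large-subunit genes in saline were Mrpl30 at 274 ± 5.80 FPKM and Mrpl12 at 189 ± 6.56 FPKM, which did not differ beyond its spread from Mrpl33 at 188 ± 4.42 FPKM (SD, n = 3 each). Mrps21, at 254 ± 8.47 FPKM, Mrps36, at 128 ± 4.26 FPKM, and Mrps23, at 123 ± 2.53 FPKM, led the small-subunit genes (SD, n = 3 each). Mrps36 carries a ribosomal name, but its protein is now known as a subunit of the oxoglutarate dehydrogenase complex. At the low end, Mrpl17 lay close to Mrpl19 at 8.48 ± 0.614 FPKM, and Mrps25, at 10.8 ± 0.550 FPKM, was the lowest of the small-subunit genes.

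Replicate libraries agreed closely for these genes. The median coefficient of variation was 3.73% in saline, 4.24% in WT DOX and 5.26% in Sting-/- DOX. The widest spreads were 11.9% for Mrps22 in saline, 11.7% for Mrpl55 in WT DOX and 18.6% for Mrps31 in Sting-/- DOX. The ranking of the members by level was largely kept between saline and WT DOX (Spearman's rho 0.972 across the 78 genes) and less closely between saline and Sting-/- DOX (0.85). These are descriptions across genes measured in the same libraries.

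Promoters of these genes are known to be rich in sites of a few general regulators of nuclear genes for mitochondrial proteins. The sequences of 6 members that recur below are shown because these genes lie at the extremes of the comparisons: Mrps31, Mrpl42 and Mrps22 among the largest falls, Mrpl24 as the largest rise in Sting-/- hearts, and Mrpl52 and Mrpl17 among the rises under doxorubicin. Each is the 120 bases before the annotated start, 5′ to 3′ on the gene's strand, from RefSeq on GRCm38.p6. Capitals mark a match to a searched motif.
Mrps31, chr8:22411220-22411339, plus strand: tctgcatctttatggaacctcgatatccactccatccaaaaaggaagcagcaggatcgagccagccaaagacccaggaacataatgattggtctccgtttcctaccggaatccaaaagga
Mrpl42, chr10:95501950-95502069, minus strand: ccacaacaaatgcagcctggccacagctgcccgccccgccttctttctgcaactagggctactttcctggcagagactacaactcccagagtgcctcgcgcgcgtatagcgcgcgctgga
Mrps22, chr9:98601680-98601799, minus strand: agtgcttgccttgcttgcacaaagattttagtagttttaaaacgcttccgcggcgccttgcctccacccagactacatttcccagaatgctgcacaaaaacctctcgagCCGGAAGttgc
Mrpl24, chr3:87919424-87919543, plus strand: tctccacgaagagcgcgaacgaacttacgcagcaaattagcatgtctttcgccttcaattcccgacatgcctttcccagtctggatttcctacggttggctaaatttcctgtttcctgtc
Mrpl52, chr14:54426789-54426908, plus strand: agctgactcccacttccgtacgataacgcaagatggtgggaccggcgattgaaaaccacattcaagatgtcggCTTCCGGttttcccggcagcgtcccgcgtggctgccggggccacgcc
Mrpl17, chr7:105811088-105811207, minus strand: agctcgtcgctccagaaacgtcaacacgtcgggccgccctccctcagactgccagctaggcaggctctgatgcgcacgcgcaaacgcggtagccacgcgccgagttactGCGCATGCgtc

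The capitals in Mrps22 and Mrpl52 are the ETS-family motif CCGGAAG, on the gene's strand in Mrps22 and on the other strand in Mrpl52, and those in Mrpl17 are the NRF1 motif GCGCATGC. In the 300-base window around the start (250 bases before, 50 after), searched on both strands, 25 of the 69 members with a promoter entry held CCGGAAG (36.2%), against 9.12% of all 27025 promoters in the table and 18.3% of those of tested genes. GCGCATGC was in 8 member promoters (11.6%, against 2.8% of all and 5.41% of tested genes) and the YY1 motif AAGATGGC in 12 (17.4%, against 2.88% and 4.63%). The E-box CACGTG, which MYC and other factors bind, was in 5 (7.25%, against 7.24% and 10.2%). A promoter could hold more than 1 motif, and 39 of the 69 held at least 1. A match is a description of the letters, not of binding.

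Doxorubicin was first compared with saline in WT hearts, to see what the drug changed. With FPKM as given, the mitochondrial ribosomal protein genes moved little and in both directions. Of the 78 members, 12 were higher and 32 lower after doxorubicin, and 34 were not called (limma, adjusted p of 0.05). Over all 12485 genes tested, 45.3% were called higher and 21.5% lower. The median log2 difference of the members was -0.08, with quartiles at -0.17 and 0.06, beside a median of 0.13 for all genes tested. These counts moved with the scaling of the libraries: with median-ratio scaling 3 members were higher and 61 lower, and with quantile normalization 4 and 57. Of the 27 members with a difference above 0, 20 turned to below 0 in the first of these scalings and 16 in the second. The median of all genes moved with them, to -0.08 and -0.10, and the calls over all genes went from 5651 higher and 2680 lower to 3582 and 5087 and to 3461 and 5363. Set against the median of all genes, the median of the members was lower under each scaling, at -0.21 for FPKM as given, -0.24 for median-ratio scaling and -0.155 for quantile normalization. The groups did not overlap for 48 members, 13 above and 35 below, against 71.7% of all genes. Summed over the members, the level was 5813, 5842 and 5776 FPKM in saline and 5477, 5189 and 5323 FPKM in WT DOX, so every WT DOX library lay below every saline library. Fewer cells of a type and less RNA per cell cannot be told apart in such bulk samples.

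Large- and small-subunit genes shifted by similar amounts. Of 49 large-subunit genes, 8 were higher and 22 lower (median log2 difference -0.12), and of 29 small-subunit genes, 4 were higher and 10 lower (-0.07). The 46 members listed as having a bacterial homologue had 7 higher and 18 lower, with a median of -0.08. The 26 listed as specific to mitochondria had 5 higher and 12 lower, with a similar median of -0.09. These differences between classes were not tested. The 6 members placed in neither list had 0 higher and 2 lower, with a median of -0.08, and their absence from the lists says nothing about their origin.

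Mrpl52, a mitochondria-specific large-subunit protein, was the one member that changed by more than 1.5-fold. Its values were 86.9, 88.1 and 82.2 FPKM in saline and 158, 147 and 148 FPKM in WT DOX. The ranges were far apart, and the gene rose by 76.1% (log2 difference 0.81, SE 0.042, limma adjusted p = 8.69e-09). The other large rises were those of Mrpl20, Mrps18b, Mrpl54 and Mrpl17, with log2 differences of 0.42, 0.41, 0.36 and 0.36 (limma adjusted p = 2.23e-04, 4.13e-05, 6.87e-05 and 1.51e-04). Mrpl17, a homologue of bacterial ribosomal protein L17, went from 7.29, 8 and 7.44 FPKM to 10.2, 9.81 and 9.86 FPKM, and the groups did not overlap. Mrps34, Mrps10 and Mrpl40 also rose, by 0.33, 0.26 and 0.24 on the log2 scale. Of these 8, only Mrpl52, Mrpl20 and Mrps18b stayed called with median-ratio scaling, at 0.56, 0.17 and 0.16, and only these and Mrpl54, at 0.17, with quantile normalization, and Mrpl40 was at -0.01 with median-ratio scaling.

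The 5 largest falls were in Mrpl42, Mrps9, Mrpl28, Mrpl3 and Mrpl55, between -0.52 and -0.44 on the log2 scale. Mrpl42, the most abundant member, was at 658, 648 and 651 FPKM in saline and at 501, 434 and 431 FPKM in WT DOX. All 3 treated libraries lay below all saline libraries, and the gene fell by 30.2% (log2 difference -0.52, SE 0.056, limma adjusted p = 5.62e-06). Mrpl3, a homologue of the bacterial L3 protein near the peptidyl transferase centre, was at 74.6, 74.4 and 69.1 FPKM in saline and at 52.6, 52.9 and 53.3 FPKM in WT DOX. The groups were apart here too (log2 difference -0.45, SE 0.049, limma adjusted p = 6.04e-06). Mrps9, a homologue of bacterial S9, fell by 28.5% in mean FPKM, Mrpl28 by 27.7% and Mrpl55 by 26.3%. These 5 falls were called under each scaling, filter and pseudocount tried and without any 1 library.

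**Figure D1:**
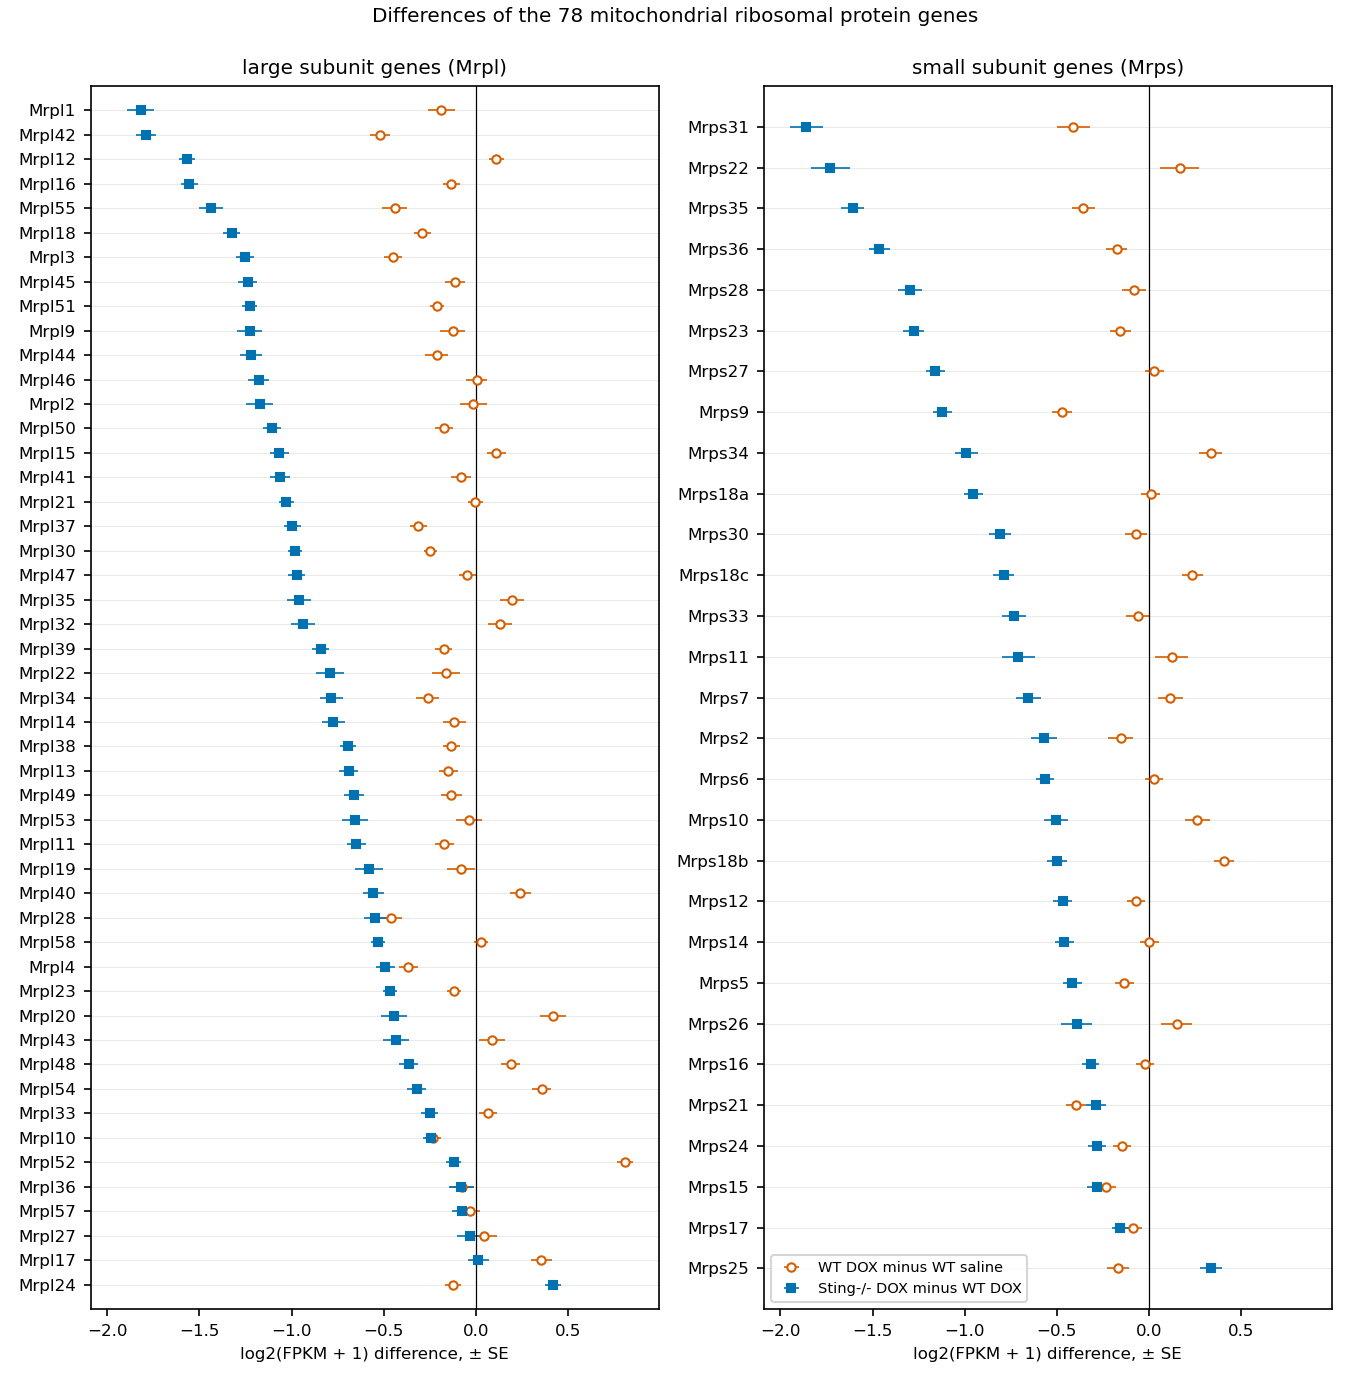
Difference in log2(FPKM + 1) for each of the 49 large-subunit genes (left) and 29 small-subunit genes (right), with its standard error, for WT DOX minus WT saline (open circles) and Sting-/- DOX minus WT DOX (filled squares), sorted by the second. The circles scatter around 0 between -0.52 and 0.81, while 72 of the 78 squares are called below 0 and only Mrpl24 and Mrps25 are called above it.

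Several members known from human disease or for other functions were looked at by name. Mrps22, whose human gene is linked to mitochondrial disease with cardiomyopathy, was at 26.7, 22.4 and 21.4 FPKM in saline and at 27.3, 24.4 and 27.6 FPKM in WT DOX, and was not called (log2 difference 0.17, SE 0.106, limma adjusted p = 0.186). Mrpl44, a protein with a ribonuclease III-like fold and also a cardiomyopathy gene in humans, had a log2 difference of -0.21 and was called lower (limma adjusted p = 0.00751). Mrps14 (0.00) and Mrps30 (-0.07) were not called, but both were called lower with median-ratio scaling and quantile normalization, Mrps14 at -0.24 and -0.18 and Mrps30 at -0.32 and -0.24. The genes named Mrps18a, Mrps18b and Mrps18c encode related proteins, of which Mrps18a, like Mrps30, is known to sit in the large subunit despite its name. Their log2 differences were 0.01, 0.41 and 0.23, with Mrps18b and Mrps18c called higher, while under median-ratio scaling and quantile normalization Mrps18a was at -0.24 and -0.19 and Mrps18c at -0.02 and 0.03.

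Mrpl12 and Mrps36 were called by narrow margins. Mrpl12, which is also described as a partner of mitochondrial RNA polymerase, was at 185, 196 and 185 FPKM in saline and at 211, 194 and 205 FPKM in WT DOX. The groups overlapped, and the call of higher (log2 difference 0.11, limma adjusted p = 0.0352) turned to lower with median-ratio scaling, at -0.14. It was also lost without WT saline library 1 (limma adjusted p = 0.105) or 3 (0.115) and without WT DOX library 1 (0.126) or 3 (0.0949). Mrps36 was lower by 0.18 (limma adjusted p = 0.0151), a call lost without WT saline library 1 (0.0555) or WT DOX library 2 (0.0589).

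The second comparison asked how hearts of Sting-/- and WT mice differed under the same drug. Nearly all of the members fell. Of 78, 72 were lower in Sting-/- DOX than in WT DOX, 2 were higher and 4 were not called (limma, adjusted p of 0.05), while 29.7% of all genes tested were called lower and 54.1% higher. The median log2 difference was -0.72, against 0.25 for all genes, and the median ratio of mean FPKM was 0.598. Set against the median of all genes the members were at -0.97, and at -0.99 for median-ratio scaling and -0.86 for quantile normalization, under which 76 and 72 members were called lower. The mean was more than 2-fold lower for 29 members. The groups did not overlap for 74 members, 72 below and 2 above, against 84.8% of all genes. The summed level was 3068, 3153 and 3109 FPKM in the Sting-/- libraries, below the lowest WT DOX library at 5189 FPKM, and its share of all FPKM was between 0.569% and 0.58% in place of 0.927% to 0.961%.

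Both subunits took part. Of the large-subunit genes, 44 were lower and 1 higher (median log2 difference -0.79), and of the small-subunit genes, 28 were lower and 1 higher (-0.66). The 26 members listed as mitochondria-specific had a median of -0.92, with 25 lower and 1 higher. The 46 listed as having a bacterial homologue had a median of -0.61, with 42 lower and 1 higher. The 6 members placed in neither list had a median of -1.18, with 5 lower and 0 higher. These differences between classes were not tested. The ratio of the summed large-subunit to small-subunit level was 2.24 to 2.29 (saline), 2.2 to 2.22 (WT DOX) and 2.06 to 2.14 (Sting-/- DOX). The ranges of this ratio did not overlap between groups, although the shift was small. An exact test of 3 against 3 libraries cannot go below p = 0.1. Mrpl42 weighs heavily in the large-subunit sum. Its mean was 652.1 of the summed 4027 FPKM in saline, 455.3 of 3668 in WT DOX and 130.8 of 2101 in Sting-/- DOX. The sums follow the gene names, so Mrps18a, Mrps30 and Mrps36 count in the small subunit. The ratio therefore cannot be read as a shift of the subunits as a whole.

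Mrps31, Mrpl1, Mrpl42, Mrps22 and Mrps35 fell most. Mrps31, a mitochondria-specific small-subunit protein whose promoter is printed above, was at 30.2, 30.0 and 30.6 FPKM in WT DOX and at 7.09, 9.32 and 6.65 FPKM in Sting-/- DOX. This was a fall of 74.6% with the groups far apart (log2 difference -1.86, SE 0.090, limma adjusted p = 1.46e-09). Mrpl1, a homologue of the bacterial protein of the mobile L1 stalk, was at 27.0, 30.7 and 29.5 FPKM in WT DOX and at 7.02, 8.27 and 7.31 FPKM in Sting-/- DOX. The groups did not overlap (log2 difference -1.82, SE 0.073, limma adjusted p = 2.67e-10).

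Mrpl42 went from 501, 434 and 431 FPKM in WT DOX to 129.7, 138 and 125 FPKM in Sting-/- DOX. It had been the most abundant member in both WT groups and was no longer so in the Sting-/- group, where Mrpl33 led at 166 ± 7.86 FPKM (SD, n = 3). The fall was 71.3% (log2 difference -1.79, SE 0.056, limma adjusted p = 2.66e-11). Mrps22 went from 27.3, 24.4 and 27.6 FPKM to 7.19, 8.61 and 6.13 FPKM (log2 difference -1.73, SE 0.106, limma adjusted p = 1.26e-08). Mrps22 thus fell between the DOX groups without a call between the WT groups. Mrps35 went from 66.9, 67.8 and 73.7 FPKM to 19.8, 23.5 and 23.2 FPKM, again with no overlap (log2 difference -1.61, SE 0.062, limma adjusted p = 1.83e-10).

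The fixed panel of members fell as well. Mrpl12 went from 211, 194 and 205 FPKM to 66.2, 69.5 and 68.6 FPKM (log2 difference -1.57, SE 0.042, limma adjusted p = 6.53e-12). Its 3 Sting-/- values lay close together and far below every WT library. Mrps36 fell by 64.4% and Mrpl3 and Mrpl44 by 59.0% each. Mrps18a, Mrps18b and Mrps18c fell by 0.95, 0.50 and 0.79 on the log2 scale, and Mrps30 and Mrps14 by 0.81 and 0.46. Mrps18b, which was higher in WT DOX than in saline, was at 35.6, 32.5 and 35.7 FPKM in Sting-/- DOX. These values overlapped those of WT saline, at 37.0, 39.6 and 34.4 FPKM. With median-ratio scaling and quantile normalization Mrps18b was called lower in Sting-/- DOX than in saline, at -0.625 and -0.382.

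**Figure D2:**
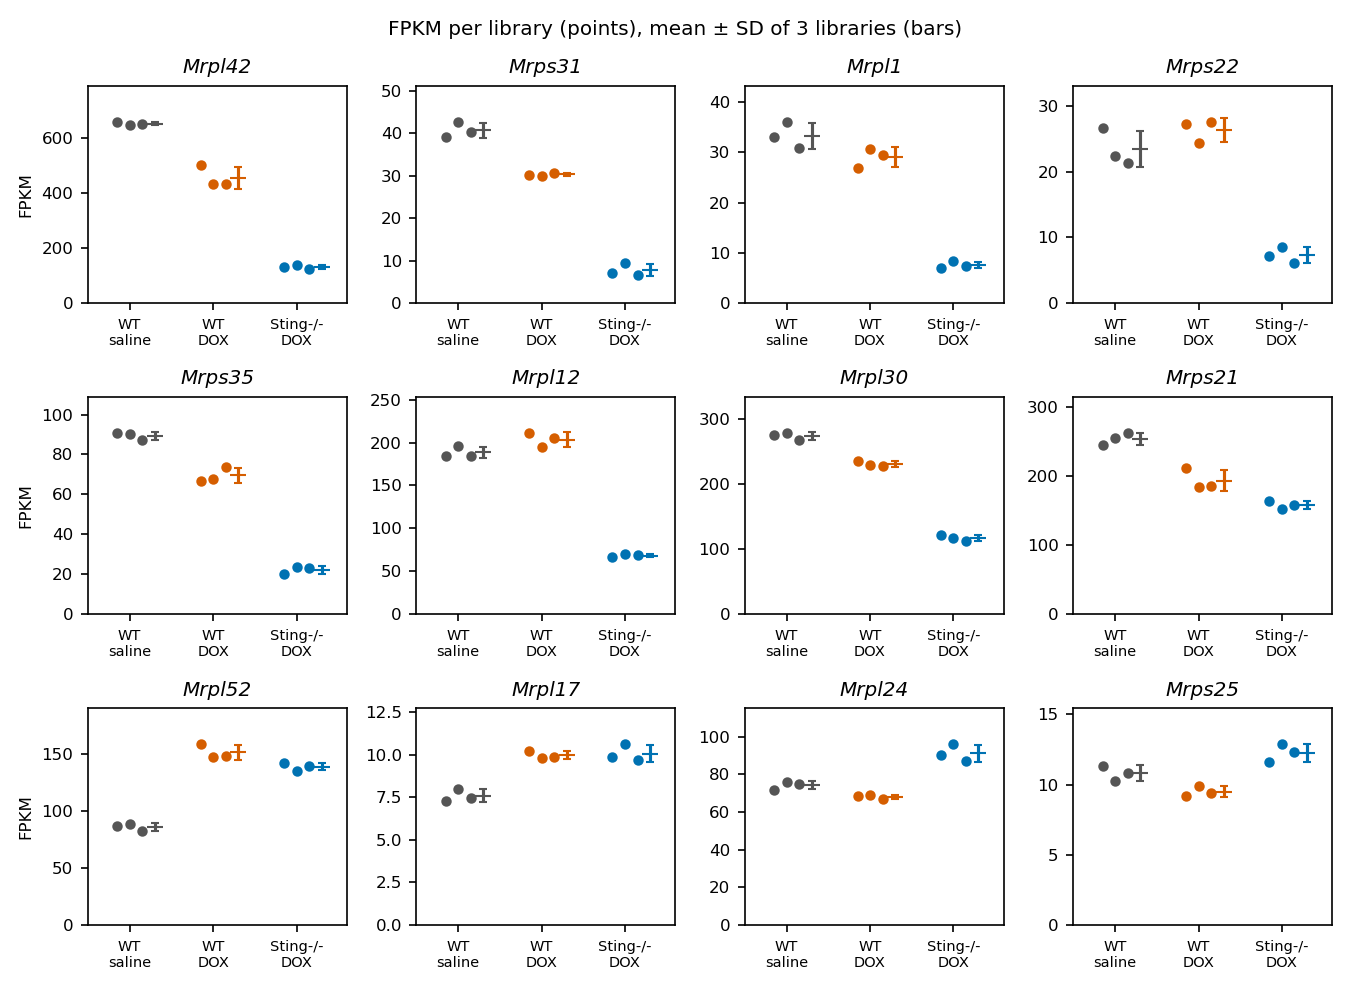
FPKM of 12 members in each of the 9 libraries (points), with the mean and SD of the 3 libraries of a group beside them, on linear axes from 0. Mrpl42, Mrps31, Mrpl1, Mrps22, Mrps35 and Mrpl12 drop sharply in the Sting-/- libraries, Mrpl30 and Mrps21 drop less, and Mrpl52 and Mrpl17 sit higher in both DOX groups than in saline.

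Abundant members differed in how far they fell. Mrpl30, at 236, 229 and 227 FPKM in WT DOX, was at 121, 116 and 112 FPKM in Sting-/- DOX (log2 difference -0.98, SE 0.037, limma adjusted p = 1.53e-10). Mrpl33, at 184, 203 and 205 FPKM, was at 159, 174 and 164 FPKM, with a log2 difference of -0.25 (limma adjusted p = 3.83e-04). With quantile normalization Mrpl33 was no longer called, at -0.11. Mrps21 fell by 0.29 (limma adjusted p = 3.33e-04). Across the 78 members the saline level and the log2 difference had a Spearman's rho of -0.102, which is a description across genes of the same libraries.

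The lowest members behaved in different ways. Mrpl19, a homologue of bacterial L19, fell to 4.86, 4.78 and 5.33 FPKM from 8.77, 7.43 and 7.69 FPKM (log2 difference -0.58, limma adjusted p = 1.4e-05). Mrpl35 fell by 51.3% to 8.35 ± 0.830 FPKM (SD, n = 3). Mrps2, a homologue of bacterial S2 and among the 3 lowest small-subunit genes, was at 20.9, 22.4 and 20.1 FPKM in WT DOX and at 13.9, 15.3 and 12.7 FPKM in Sting-/- DOX (log2 difference -0.57, limma adjusted p = 7.54e-06). Against saline, at 23.8, 22.4 and 24.9 FPKM, its WT DOX values were not called (-0.155, limma adjusted p = 0.0659), but they were called lower with median-ratio scaling (-0.40), quantile normalization (-0.33) and TPM (-0.19), in a fit of those 2 groups alone (0.0366), and without library 2 of saline (0.0442) or WT DOX (0.042) or library 2 (0.0418) or 3 (0.0423) of Sting-/- DOX. Mrpl17 was at 9.86, 10.6 and 9.69 FPKM beside 10.2, 9.81 and 9.86 FPKM in WT DOX, and was not called (log2 difference 0.01, limma adjusted p = 0.861). With median-ratio scaling and quantile normalization it was called lower, at -0.25 and -0.26. The other members not called were Mrpl27, Mrpl36 and Mrpl57.

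Mrpl24 and Mrps25 were the members called higher in Sting-/- DOX. Mrpl24, a homologue of bacterial L24, was at 68.5, 68.9 and 66.8 FPKM in WT DOX and at 90.4, 96.1 and 87.2 FPKM in Sting-/- DOX. The groups were apart, and the gene was 34.0% higher (log2 difference 0.42, SE 0.043, limma adjusted p = 1.78e-06). Mrps25, a mitochondria-specific protein, was at 9.17, 9.93 and 9.42 FPKM in WT DOX and at 11.6, 12.9 and 12.3 FPKM in Sting-/- DOX (log2 difference 0.34, limma adjusted p = 1.8e-04). Its call did not hold under median-ratio scaling (0.07) or quantile normalization (0.08), while that of Mrpl24 was kept, at 0.12 and 0.42.

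Both of these genes share exon bases with a gene on the opposite strand in GENCODE on GRCm38, and whether the authors' counting used strand is not stated. Rrnad1 covers 38.2% of the exon bases of Mrpl24 and was at 6.43, 7.02 and 6.59 FPKM in WT DOX and 15.9, 16.6 and 20.8 FPKM in Sting-/- DOX (log2 difference 1.28, limma adjusted p = 1.94e-07). Nr2c2 covers 58.2% of the exon bases of Mrps25 and moved the other way, from 2.99 ± 0.410 to 2.10 ± 0.235 FPKM (SD, n = 3 each; log2 difference -0.36, limma adjusted p = 0.00404). The values of Mrpl24 and Mrps25 are therefore uncertain. In all, 14 members share exon bases with another gene in the tables, and among the other 64 members 62 were lower, 0 were higher and 2 were not called (limma, with 0 higher at an unadjusted p of 0.05 as well). Counting every annotated gene, 26 members share exon bases, and of the other 52 members 50 were lower. Among the 26, Mrpl53 shares 100% and Mrps6 36.1% of its exon bases with a gene on the same strand. On the opposite strand, Mrps18b shares 59.1%, Mrpl19 39.2% (with Gcfc2), Mrpl43 27.5% (with Twnk) and Mrpl13 27.0% (with Mtbp). Between the DOX groups Gcfc2 rose by 0.45 (limma adjusted p = 3.25e-04), Twnk was at -0.37 (1.44e-04) and Mtbp was not called (0.49). The values of Mrpl19, Mrpl43 and Mrpl13 are therefore uncertain as well. The RefSeq table also lists pseudogenes of Mrpl23, Mrpl27, Mrpl48 and Mrps36, so fragments of these members may have been split with a copy.

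The third comparison set Sting-/- DOX hearts against WT saline hearts. It shares the Sting-/- libraries with the second comparison and the saline libraries with the first, so it is not separate evidence. Of 78 members, 69 were lower and 4 higher, with 5 not called (limma, adjusted p of 0.05), against 25.9% of all genes called lower and 63.0% higher. The median log2 difference was -0.81, beside 0.49 for all genes, which puts the members at -1.31 relative to all genes, at -1.36 under median-ratio scaling and at -1.15 under quantile normalization. The groups did not overlap for 72 members, against 89.2% of all genes.

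Mrpl42 and Mrps31 showed the largest total falls. Mrpl42 was 4.99-fold lower in mean FPKM than in saline (log2 difference -2.31, SE 0.056, limma adjusted p = 1.55e-12), and Mrps31 was 5.28-fold lower (-2.27, SE 0.090, limma adjusted p = 1.33e-10). Mrpl1, Mrps35 and Mrpl55 followed at -2.01, -1.97 and -1.88. Mrpl52 was higher in Sting-/- DOX, at 142, 135 and 139.5 FPKM beside 86.9, 88.1 and 82.2 FPKM in saline. The groups did not overlap, and the log2 difference was 0.69 (SE 0.042, limma adjusted p = 8.71e-09). Between the DOX groups it was lower by 0.12 (limma adjusted p = 0.0184), a call lost with quantile normalization, at -0.02, and without WT DOX library 1 (limma adjusted p = 0.0815) or Sting-/- DOX library 2 (0.0676). The next gene on the same strand, Mmp14, a membrane-bound matrix protease picked after its values were seen, shares no exon with Mrpl52 and was at 4.51 ± 0.397, 28.0 ± 1.07 and 135.1 ± 4.66 FPKM in saline, WT DOX and Sting-/- DOX (SD, n = 3 each). Its part in the values of Mrpl52 was not tested.

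The other 3 called higher were Mrpl17 (0.37), Mrpl24 (0.29) and Mrps25 (0.17), all of which turned to negative values with median-ratio scaling, at -0.12, -0.25 and -0.34. The call of Mrps25 was also lost without WT saline library 2 (limma adjusted p = 0.0718) or Sting-/- DOX library 2 (0.071). Mrpl20, Mrpl54 and Mrps18b, which had risen under doxorubicin in WT hearts, were not called against saline, at -0.03, 0.04 and -0.09. With median-ratio scaling and quantile normalization all 3 were called lower against saline. Mrpl27 and Mrpl57 were not called either.

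The lists of other genes of mitochondrial translation had medians below 0 between the DOX groups, and the share of their genes called lower differed from list to list. Of 5 further subunits with other names, all 5 were lower in Sting-/- DOX than in WT DOX (median log2 difference -0.52). Ptcd3, a pentatricopeptide protein of the small subunit, fell from 61.6 to 19.3 FPKM (-1.63), Chchd1 by 0.95 and Dap3, a GTP-binding small-subunit protein, by 0.52 on the log2 scale. In the first comparison Ptcd3 and Dap3 fell by 0.38 and 0.34 while Chchd1 rose by 0.27, a call that neither median-ratio scaling (0.02) nor quantile normalization (0.07) kept. Of 26 genes of ribosome assembly, 3 were higher, 15 lower and 8 not called in the second comparison, with a median of -0.26. With median-ratio scaling these were 1 higher and 20 lower (median -0.51), and with quantile normalization 2 and 20 (-0.54). Mtg1, a GTPase of large-subunit assembly, fell by 1.32, and Fastkd2, an RNA-binding assembly protein, by 1.18, while Mterf3 and Mpv17l2 rose by 0.49 and 0.38. With median-ratio scaling Mterf3 was at 0.20 and still called, and Mpv17l2 was at 0.10 and no longer called.

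The translation factors spanned -2.78 to 0.53 between the DOX groups. Of 15, 12 were lower and 1 higher in Sting-/- DOX than in WT DOX (median -0.58), and 11 lower and 1 higher in WT DOX than in saline (median -0.26), where the 1 higher was not kept with median-ratio scaling or quantile normalization. Taco1, a translational activator of a cytochrome c oxidase subunit, went from 28.8 to 3.36 FPKM between the DOX groups (log2 difference -2.78, limma adjusted p = 5.69e-11). Gfm1, a mitochondrial elongation factor, went from 72.6 to 11.4 FPKM (-2.57), and Lrpprc, which stabilises mitochondrial messenger RNA, from 46.7 to 8.80 FPKM (-2.29). Each of these 3 falls was greater than the largest among the 78 members. In the first comparison Tufm, the elongation factor that delivers transfer RNA, fell by 0.55, and Mtif2 and Lrpprc by 0.53 each.

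Of 20 genes of transfer RNA charging, 12 were lower in the first comparison (median -0.24), and 10 were lower, 1 higher and 9 not called in the second (median -0.41). Median-ratio scaling raised these counts of lower genes to 18 and 17. Cars2 fell by 0.69 under doxorubicin in WT hearts, and Yars2, the tyrosyl-tRNA synthetase, by 1.55 between the DOX groups. Of 13 genes of mitochondrial transcription and DNA upkeep, 8 were lower and 4 higher in the second comparison, or 8 and 2 with median-ratio scaling or quantile normalization. Tefm, a transcription elongation factor, fell by 1.34, and Polg, the DNA polymerase, rose by 0.58, or by 0.30 and 0.34 under those scalings.

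**Figure D3:**
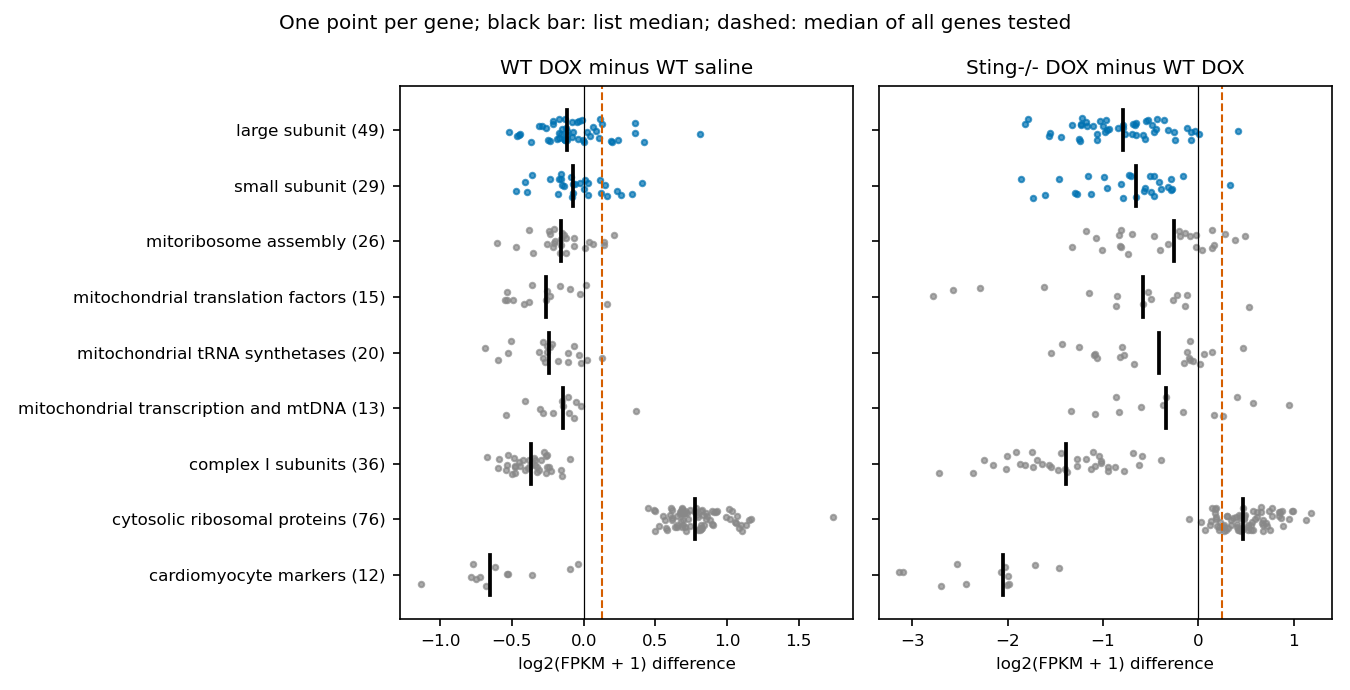
Log2(FPKM + 1) difference of every tested gene (points) in each list, with the list's median (black bar) and the median of all genes tested (dashed line, 0.13 and 0.25), for WT DOX minus WT saline (left) and Sting-/- DOX minus WT DOX (right). Numbers in brackets are genes per list. Complex I genes and cardiomyocyte markers lie further below 0 than either subunit of the mitochondrial ribosome, and cytosolic ribosomal protein genes lie above 0 on the left.

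Of 9 regulators of nuclear genes for mitochondrial proteins, 4 were higher and 5 lower in the second comparison, or 2 and 5 with median-ratio scaling. Ppargc1a, a coactivator of mitochondrial gene programmes, went from 25.5 FPKM in saline to 16.1 in WT DOX and 1.31 in Sting-/- DOX, with log2 differences of -0.63 and -2.89 for the first and second comparisons. Ppargc1b was lower by 0.20 in the first comparison and by 0.91 in the second. Nrf1 rose by 0.43 and by 0.51, Gabpb1, a subunit of an ETS-family factor, rose by 0.98 in the second comparison, and Myc rose by 2.48 in the first and fell by 0.88 in the second. Members with the ETS motif in the promoter window had a median log2 difference of -0.66 in the second comparison and the others -0.79. For NRF1 the medians were -0.65 and -0.73, and for YY1 -0.82 and -0.73. For the E-box, held by 5 members, they were -0.79 and -0.72. In the first comparison the medians with and without the motif were -0.0 and -0.13 for ETS and -0.03 and -0.08 for NRF1. For YY1 they were -0.03 and -0.12, and for the E-box -0.01 and -0.1. None of these differences was tested.

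The members stood between complex I and the cytosolic ribosome. The 36 complex I subunit genes tested, whose proteins include partners of mitochondrially made subunits, had 34 lower in the first comparison and all 36 in the second, with medians of -0.37 and -1.39. The 76 cytosolic ribosomal protein genes were all higher in the first comparison (median 0.78), and in the second 72 were higher and 1 lower (median 0.47), or 49 higher and 11 lower with median-ratio scaling. The summed level of the members relative to complex I was between 0.309 and 0.318 in saline, between 0.375 and 0.382 in WT DOX libraries and between 0.561 and 0.564 in Sting-/- DOX. Relative to the cytosolic ribosomal proteins it was 0.191 to 0.192, 0.101 to 0.103 and 0.0409 to 0.0418 in the same order. These ranges do not overlap, and such ratios within a library show unequal change, not which side changed.

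**Figure D4:**
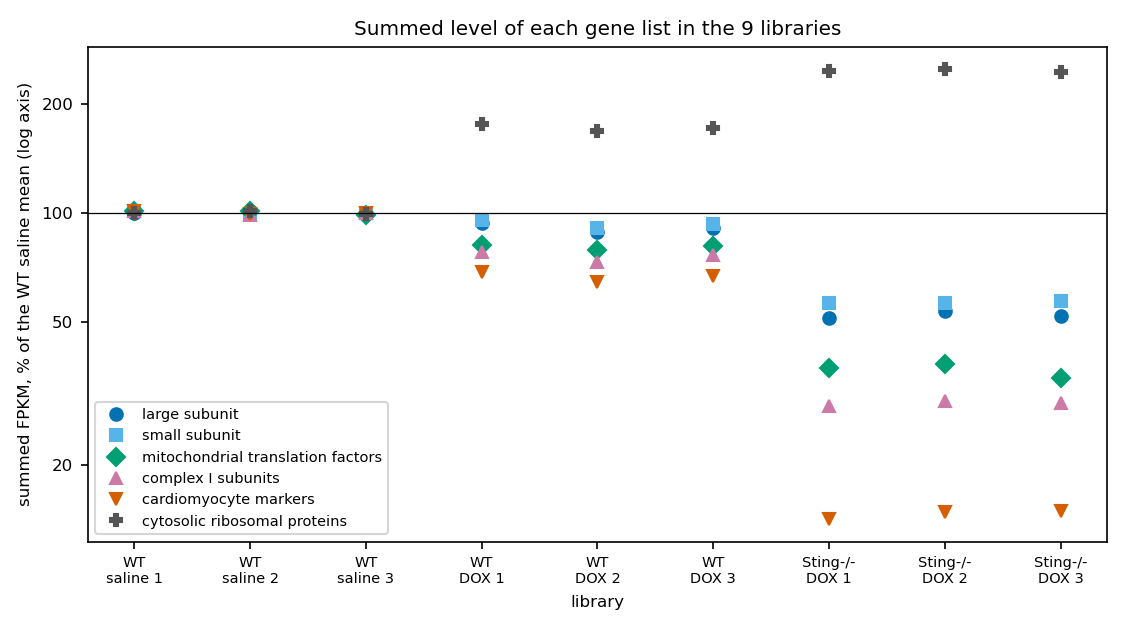
Summed FPKM of each gene list in each library as a percentage of its mean over the 3 saline libraries, on a log axis. In the Sting-/- libraries the large subunit is at 51.3% to 53.4%, the small subunit at 56.3% to 57.1%, complex I at 29.2% to 30.2%, cardiomyocyte markers at 14.2% to 15% and cytosolic ribosomal proteins at 245% or more.

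Markers of the cells of the heart also differed between groups. Between the DOX groups only the cardiomyocyte and neutrophil lists had medians below 0, as the members did. All 12 cardiomyocyte markers were lower in Sting-/- DOX than in WT DOX (median log2 difference -2.05), and 10 of 12 were lower in WT DOX than in saline (median -0.65). Fibroblast markers were higher in 6 of 7 cases in both comparisons (5 of 7 in the first with median-ratio scaling or quantile normalization), and their sum was 501 to 512 FPKM (saline), 902 to 931 FPKM (WT DOX) and 5897 to 6293 FPKM (Sting-/- DOX). Endothelial markers were higher in 6 of 6 cases in the second comparison, with sums of 245 to 254, 232 to 239 and 1022 to 1103 FPKM. Smooth muscle (4 of 4), mesothelial (5 of 5) and erythroid (5 of 5) markers were also higher in the second comparison. Smooth muscle sums were 106.5 to 143.9 (saline), 131.8 to 149.1 (WT DOX) and 781 to 834.8 FPKM (Sting-/- DOX). Mesothelial sums were 3.85 to 6.07, 5.43 to 7.29 and 89.7 to 91.98 FPKM in the same order. The erythroid markers had been lower in 5 of 5 cases in the first comparison, with sums of 2454 to 2548, 1498 to 1638 and 8480 to 9700 FPKM. Macrophage markers were higher in 7 of 7 cases in the first comparison and in 6 of 7, with 1 lower, in the second, or in 4 of 7 with 1 lower under median-ratio scaling. Their sums were 409 to 463, 1258 to 1421 and 2551 to 2655 FPKM. Neutrophil marker sums were 6.31 to 7.02, 209 to 276 and 82.2 to 97.5 FPKM in the same order, and proliferation markers were higher in 5 of 5 and 4 of 5 cases, the latter 3 of 5 with median-ratio scaling or quantile normalization. No marker of these lists was at 0 in any library. Relative to the summed cardiomyocyte markers, the members were at 0.0755 to 0.0769 in saline, 0.105 in every WT DOX library and 0.272 to 0.282 in Sting-/- DOX. The part of these shifts in the results for the members was not tested.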

How the data were processed

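RNA-seq of 9 mouse heart libraries was used, grouped by genotype and treatment as the labels give them. The authors deposited 1 table per library holding FPKM for the same 16873 gene IDs, to 2 decimals. Per the submitters' processing notes, HISAT2 2.0.4, Bowtie2 2.2.5 and RSEM 1.2.12 were used with GRCm39, and the notes do not say which step each served. FPKM scales each library to its own total, so a few abundant genes shift all others, and it holds no counts, so no count model was used. Depth was estimated from the steps of low values, of which 37.7% to 52.8% were within 0.1 fragments of a whole number, so it is approximate.

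Deposited FPKM were analysed as log2(FPKM + 1) with limma 3.58.1 in R 4.3.3 (trended prior, all 9 libraries in 1 fit, 6 residual degrees of freedom, two-sided), on 12485 genes averaging at least 1 FPKM, with Benjamini-Hochberg adjustment over all of them and a threshold of 0.05. Differences on this scale understate the change of low genes. The fit was tested on simulated data in which few genes were changed and the scaling was not varied, so that test says nothing about the scaling. Symbols came from a RefSeq table of GRCm38.p6 (16825 IDs matched, 48 did not), promoters from RefSeq on GRCm38.p6, and exon overlaps from GENCODE on GRCm38. No coordinates were carried between builds. Python 3.11.15 with pandas 2.3.3 was used for joins.

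Members named are the 5 largest rises and 5 largest falls called in each comparison, the 3 highest and 3 lowest of each subunit, up to 8 called against the median, and a panel of 10 genes, with up to 3 genes of each other list and up to 2 called in the opposite direction. The members, lists and rules were chosen with earlier results of these data known. Alternatives covered the pseudocount, the filter, the scaling, the libraries in the fit, the variance prior, a replicate block and leaving out each library. Counts without members that share exons were added after the data were seen.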

Additional observations from a re-analysis of the deposited data

How the results depend on the processing

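The medians of the members kept their direction in all 3 comparisons under every alternative tried, and their size moved with the scaling. With median-ratio scaling 3 members were higher and 61 lower in WT DOX against saline (median -0.329), 1 higher in Sting-/- DOX than in WT DOX (median -1.001) and 1 higher than in saline (median -1.335). With quantile normalization these values were 4 and 57 (-0.259), 1 (-0.838) and 2 (-1.124), and with FPKM rescaled to TPM the median between the DOX groups was -0.666. Among members with no exon shared with a gene in the tables, and among those sharing none with any annotated gene, 0 were higher between the DOX groups and 2 higher in Sting-/- DOX than in saline. In WT DOX against saline 20 of the 27 members above 0 turned to below 0 with median-ratio scaling, 10 of which were then called lower, and 16 with quantile normalization, 6 of which were then called lower. The named members called before or after such a turn were, with median-ratio scaling, Mrpl12 (-0.141), Mrpl33 (-0.185), Mrpl35 (-0.043), Mrpl40 (-0.006), Mrps14 (-0.241), Mrps18a (-0.241) and Mrps18c (-0.015), and with quantile normalization Mrpl35 (-0.02), Mrps14 (-0.181) and Mrps18a (-0.185). In Sting-/- DOX against WT DOX Mrpl17 turned to -0.254 and -0.259. In Sting-/- DOX against saline 5 and 4 of the 6 members above 0 turned, among them Mrpl17, to -0.124 and -0.13, Mrpl54 to -0.506 and -0.149, Mrps25 to -0.335 and -0.298, and Mrpl24 to -0.249 with median-ratio scaling. The cause of these turns was not tested.

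Leaving out 1 library at a time gave 10 to 13 members higher and 24 to 35 lower in WT DOX against saline, 2 higher and 71 to 72 lower between the DOX groups, and 3 to 4 higher and 68 to 69 lower in Sting-/- DOX against saline. Same-numbered libraries deviated together with a correlation between -0.0323 and 0.104, so the numbers were not taken to pair them. With a replicate block, 11 members were higher and 33 lower, 2 and 72, and 4 and 68 in the 3 comparisons. Depth is approximate, and no member was low enough for it to limit detection.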
